A study of Schizosaccharomyces pombe with 2 samples.

Results

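The genes described here encode the proteins of the small subunit of the cytosolic ribosome of the fission yeast Schizosaccharomyces pombe, whose symbols begin with rps and a number. They were chosen by name, from the name on the array or the current symbol of the locus, and mitochondrial ribosomal protein genes were left out. The array carried 55 of them among 4868 gene names, and they encode 31 different proteins. RNA of a strain labelled pob3 was hybridised together with RNA of a strain labelled wt on each of 2 spotted arrays of open reading frames. The dyes were exchanged between the arrays: pob3 RNA carried Cy5 on replicate 1 and Cy3 on replicate 2. The labels give neither the pob3 allele nor the strain background, medium or growth phase of either strain. Whether each array had a culture of its own is not given either, so that the spread behind a p-value here may be only technical. Pob3 is a subunit of FACT, a complex that loosens and rebuilds nucleosomes while genes are transcribed, and the arrays address which transcripts differ between these strains.

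The small ribosomal subunit binds messenger RNA, scans for the start codon and reads codons against transfer RNAs, and its proteins sit around a core of ribosomal RNA. Ribosomal protein genes are among the most strongly transcribed genes of a growing yeast cell, and in yeasts their transcription follows nutrient supply through the TOR pathway. Fission yeast keeps duplicate genes for most of these proteins, and the members of a pair usually encode almost the same protein. Here 22 of the 31 proteins had a pair of genes on the array, 1 (Rps4) had 3 genes and 8 had a single gene. Paralogs so alike can share probe signal, and how much they did was not tested. The array name rps3 also matches a gene of the mitochondrial genome, so that this probe may report either.

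Most of these transcripts were too bright for the scanner. Each spot gives a median signal for pob3 and one for wild type, with a ceiling of 65535 scanner units, so a gene has 8 readings over 2 arrays with duplicate spots. All 8 readings were at the ceiling for 28 of the 55 genes (50.9%), between 1 and 7 readings were for 18 genes, and none was for 9 genes. A ratio of a pair of ceiling readings holds no information on the difference between the strains. The same held for 36 of 78 large-subunit ribosomal protein genes (46.2%), but for 24 of the 4735 remaining genes (0.507%). For 13 of the 31 proteins every gene copy was saturated in all readings, and for 8 proteins at least 1 copy had none.

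Among the 28 genes at the ceiling throughout were rps2, rps401, rps402, rps403, rps601, rps7, rps801, rps802, rps901, rps902, rps1101, rps1102, rps1202, rps1401, rps1402, rps1501, rps1601, rps1602, rps1801, rps1802, rps1902, rps20, rps23, rps2302, rps2401 and rps29. Among them are genes for proteins of the decoding region and of the messenger RNA channel, such as rps2 and rps23. Of the 28, 3 also carried a quality mark on replicate 2, rps1101 and rps1402 among them, and were left out there, which left 52 genes measured on both arrays. The 3 genes for small-subunit proteins that are named otherwise were saturated in all readings too: ubi3 and ubi5, which encode a ribosomal protein fused to ubiquitin, and cpc2, the homologue of mammalian RACK1. The 3 places where small-subunit genes lie next to each other (rps29 with rps27, rps1402 with rps1601, rps2 with rps20) each held at least 1 gene saturated in all readings, so neighbours could not be compared.

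Saturation followed the dye more than the strain. Among the 110 spots of these genes on an array, pob3 was saturated in 75.5% in Cy5 on replicate 1 and in 65.5% in Cy3 on replicate 2. Wild type was saturated in 55.5% in Cy3 on replicate 1 and in 77.3% in Cy5 on replicate 2. Over all genes the saturated share of spots lay between 2.22% and 4.60% for each strain and array.

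**Figure D1:**
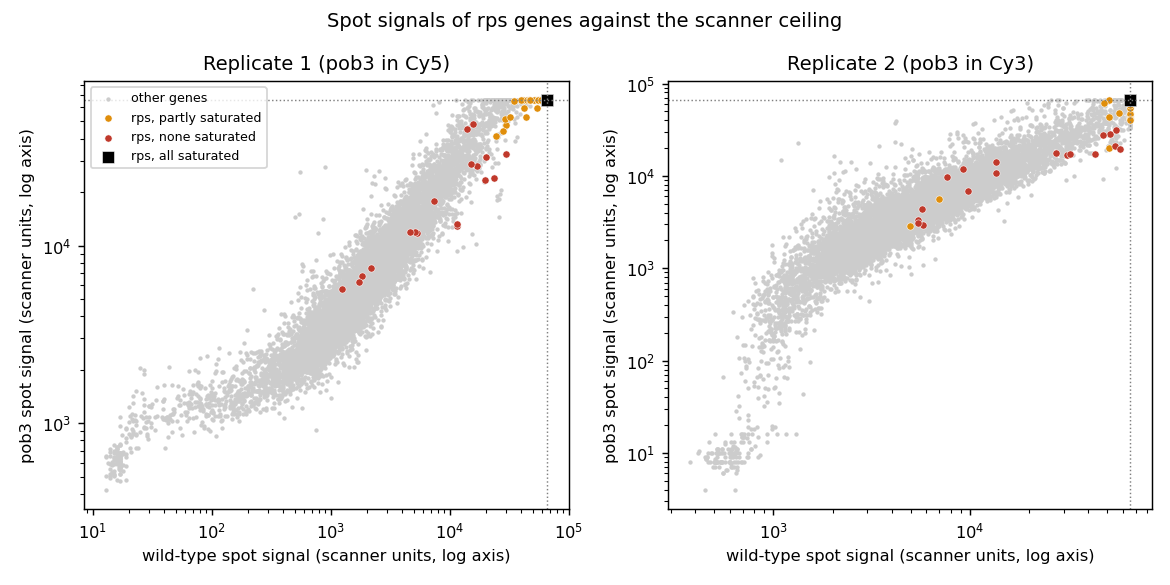
Signal of pob3 against wild type for every gene spot on each array, on log axes in scanner units, with dotted lines at the ceiling of 65535. The 28 genes with all readings saturated lie on the corner where both lines meet, and the 9 genes with none (red) lie below both lines on both arrays.

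Ratios below are log2 of pob3 over wild type, after background correction and a loess curve that removes the dependence of the ratio on brightness within each spot file. Each mean ± SD is over n = 2 arrays, a number that limits the precision. For spots at the ceiling the ratio is the height of that curve alone. The 25 measured genes with all readings saturated had -0.31 on replicate 1 and 0.06 on replicate 2, with SDs across genes of only 0.0019 and 0.0020. Their median of -0.12 therefore describes the correction, and the median over all 52 measured small-subunit genes was the same value, -0.12. The 9 genes with no saturated reading had a median of -0.24, against 0.02 over all 4766 genes measured, with -0.27 on replicate 1 and -0.57 on replicate 2. These 9 include the probe named rps3, which may report the mitochondrial gene, and the median on replicate 2 is this probe's own value.

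The correction was larger on replicate 1 than on replicate 2, and least at the ceiling. Before it, the median log2 ratio over all gene spots was 1.55 on replicate 1 and -0.25 on replicate 2, since Cy5 was brighter on both. The amount removed on replicate 1 lay between 0.90 and 1.57 for the spots of the 9 unsaturated genes and was 0.30 at the ceiling. On replicate 2 it lay between -0.23 and -0.10 for the same genes. With each spot file centred on its median instead, the median of the 52 genes was -0.65, while that of the 9 unsaturated genes stayed at -0.24.

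**Figure D2:**
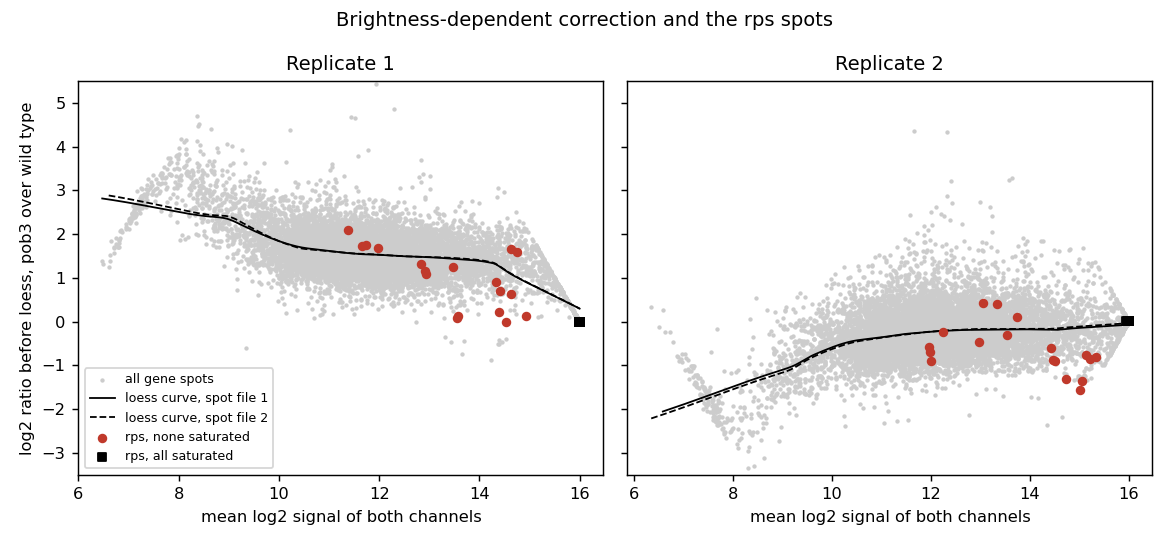
Log2 ratio of pob3 over wild type before the correction against the mean log2 signal of both channels, for all gene spots of each array, with the fitted curves of the first (solid) and second (dashed) spot file in black. On replicate 1 the curve bends down towards the ceiling, where the saturated rps genes (black squares) lie at 0, and the unsaturated rps genes (red) lie on the part before and within that bend.

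None of the 52 measured genes passed limma's test at an adjusted p of 0.05, where 0.525% of all genes did (25 of 4766), 0.0839% as lower and 0.441% as higher in pob3. Small-subunit genes saturated throughout could not pass, as their ratio is the height of the curve, so that these shares cannot be compared. Of the 9 unsaturated genes 0 passed, against 24 of the 4521 measured genes with no saturated reading. At an unadjusted p of 0.05, where 7.41% of all genes lay, 4 small-subunit genes had a lower corrected ratio and 0 a higher one. All 4 were among the 9 unsaturated genes, and 2.94% of all genes lay as low (3.07% of genes with no saturated reading). Below 0 on both arrays were 5 of the 9 unsaturated genes, against 26.6% of genes with no saturated reading. Over all 52 genes the count was 13, where 25.7% of all genes were, but the curve alone gives the 25 saturated genes opposite signs, so that these shares cannot be compared. The 4 low genes were rps1002, rps001, rps1001 and rps2501. On replicate 1 their ratios before the curve was removed were above 0, at 0.10, 0.38, 0.11 and 0.81 in that order. They lay below the median of 1.55 over all gene spots, so that their sign there rests on removing that offset. With median centring in place of the curve they were -1.46, -1.19, -1.45 and -0.76 there. The strain's own pob3 probe had a log2 ratio of -1.26 ± 0.20 (limma adjusted p = 0.0612).

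The lowest was rps1002, 1 of 2 genes for Rps10, a protein of the head of the subunit that in mammals is ubiquitinated on stalled ribosomes. On replicate 1 its spots read 23355 and 23920.5 in pob3 and 19804 and 23602 in wild type. On replicate 2 they read 21258 and 19329 in pob3 and 54865.5 and 57672 in wild type. Before the curve was removed its log2 ratio was thus 0.10 on replicate 1 and -1.46 on replicate 2. The low value on replicate 1 rests on a correction of 1.22, and with median centring instead of the curve it was -1.46 there. After correction the 4 spots gave -1.06 and -1.18 on replicate 1 and -1.22 and -1.45 on replicate 2, so all were lower by over 2-fold. The mean was -1.23 ± 0.15 (2.34-fold lower, 95% confidence interval -1.78 to -0.67 from limma's pooled spread). Its limma adjusted p of 0.0633 missed the threshold, and it passed with the second spots alone (0.0182), without background subtraction (0.0346) and with duplicateCorrelation (0.0373), while with median centring it was 0.458. Of the 52 genes it alone was lower by over 2-fold on each array, as 0.231% of all genes were, and 0 were higher by as much, against 0.755%. The 25 genes at the ceiling throughout could be neither, and saturation limits others of the 52, so that these shares cannot be compared. With print-tip loess 0 of the 52 were lower to that extent.

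The other Rps10 gene, rps1001, was low on replicate 1 only. Its spots there gave -1.34 and -1.31, from signals of 12868 and 13189 in pob3 and 11630.5 and 11631 in wild type. On replicate 2 its duplicate spots disagreed in sign, with -0.42 and 0.28, as wild type read 27549 on one and 13538 on the other. The mean was -0.70 ± 0.89 (limma adjusted p = 0.670). The spread between the arrays was thus larger than the mean itself.

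Next to rps1002 came rps001, 1 of 2 genes for Rps0, the homologue of mammalian RPSA, which in budding yeast is needed to mature the small subunit. Its spots gave -0.78 and -0.47 on replicate 1, after a correction of 1.00, and -0.68 and -1.17 on replicate 2, all of them below 0. Signals of pob3 lay between 17349 and 32740 and those of wild type between 20199 and 55597. The mean was -0.77 ± 0.21 (1.71-fold lower, limma adjusted p = 0.457, interval -1.34 to -0.21). Its paralog rps002 had -0.04 on replicate 1 and -0.60 on replicate 2, but wild type was saturated in both spots on the latter. Given the curve as fitted, true ratios there can only be lower, and with median centring the value there was -0.41.

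The gene rps2501 encodes Rps25, a head protein that budding yeast and mammals need for initiation at some viral internal entry sites. Its 4 spots were all below 0, at -0.55 and -0.40 on replicate 1, after a correction of 1.29, and at -0.69 and -0.75 on replicate 2. The mean was -0.60 ± 0.17 (1.51-fold lower, limma adjusted p = 0.644, interval -1.15 to -0.04). The paralog rps2502 was saturated in Cy5 in both spots of both arrays. Given the curve as fitted, its ratio of -0.01 on replicate 1 is thus a lower bound, as pob3 was at the ceiling. That of -0.52 on replicate 2 is an upper bound, as wild type was at the ceiling. With median centring instead of the curve rps2502 had -1.15 and -0.33.

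Of the remaining 5 unsaturated genes only rps1901 had the same sign on both arrays. It encodes Rps19, whose human counterpart is mutated in Diamond-Blackfan anaemia, and it had -0.27 and -0.21 (mean -0.24 ± 0.05, limma adjusted p = 0.889). The other genes had opposite signs on the arrays. The gene rps602, for the S6 protein that is phosphorylated downstream of TOR, had 0.58 in both spots of replicate 1 and -0.73 and -0.67 on replicate 2, brighter in Cy5 each time. Its ratio on replicate 1 was 1.64 before the curve was removed. With median centring instead of the curve rps602 had 0.07 on replicate 1 and -0.55 on replicate 2. The probe named rps3, for a protein of the messenger RNA entry channel, had 0.37 and -0.57 in the same order. The gene rps3001, for the small protein Rps30, had the opposite order, with -0.25 and 0.59. Before the curve was removed its ratio was 1.21 and 0.41, where the medians over all gene spots were 1.55 and -0.25. With median centring instead of the curve it was -0.36 and 0.67. Means of rps602, rps3 and rps3001 lay between -0.10 and 0.17, with limma adjusted p-values between 0.931 and 0.981. An interval of -0.76 to 0.64 for rps602 shows how little such a pair of arrays fixes a gene of this kind.

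**Figure D3:**
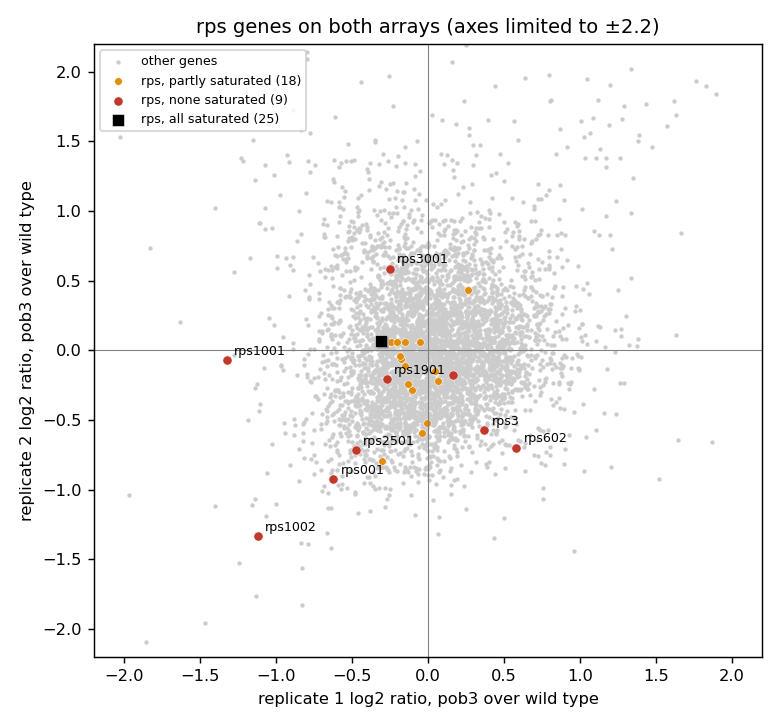
Log2 ratio of pob3 over wild type on replicate 2 against replicate 1 for all genes, with axes that stop short of the most extreme other genes. The 9 unsaturated rps genes are red, 8 of them with a label, the 25 measured rps genes with all readings saturated coincide at -0.31 and 0.06, and rps1002 lies lowest of the labelled genes on replicate 2.

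Among the 18 partly saturated genes the ratio of a saturated spot is a bound at best, given the curve as fitted. For 11 of them Cy5 was at the ceiling in every spot of both arrays, which bounds the ratio from below on replicate 1 and from above on replicate 2 only in spots where Cy3 was not at the ceiling too. Of these, 3 had no saturated Cy3 reading: rps2502, rps2602 (-0.11 and -0.29), which encodes a protein of the messenger RNA exit channel, and rps2801 (-0.18 and -0.06). On replicate 2 such bounds place rps2602 at -0.29 or lower. Also below 0 on both arrays were rps13 (-0.14 and -0.24), rps1201 (-0.15 and -0.11) and rps21 (-0.19 and -0.04), each with 3 to 5 of 8 readings saturated.

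The other gene for Rps30, rps3002, had 0.26 on replicate 1 and 0.44 on replicate 2 (mean 0.35 ± 0.12, limma adjusted p = 0.818). Of the 52 genes it alone was above 0 on both arrays, where 26.8% of all genes were. The 25 genes at the ceiling throughout could not be, as the curve gives them opposite signs, so that these shares cannot be compared. Of the 9 unsaturated genes 0 were. In rps3002 pob3 was at the ceiling in 1 spot of each array, so its ratios are lower bounds, yet with median centring its mean turned to -0.07.

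**Figure D4:**
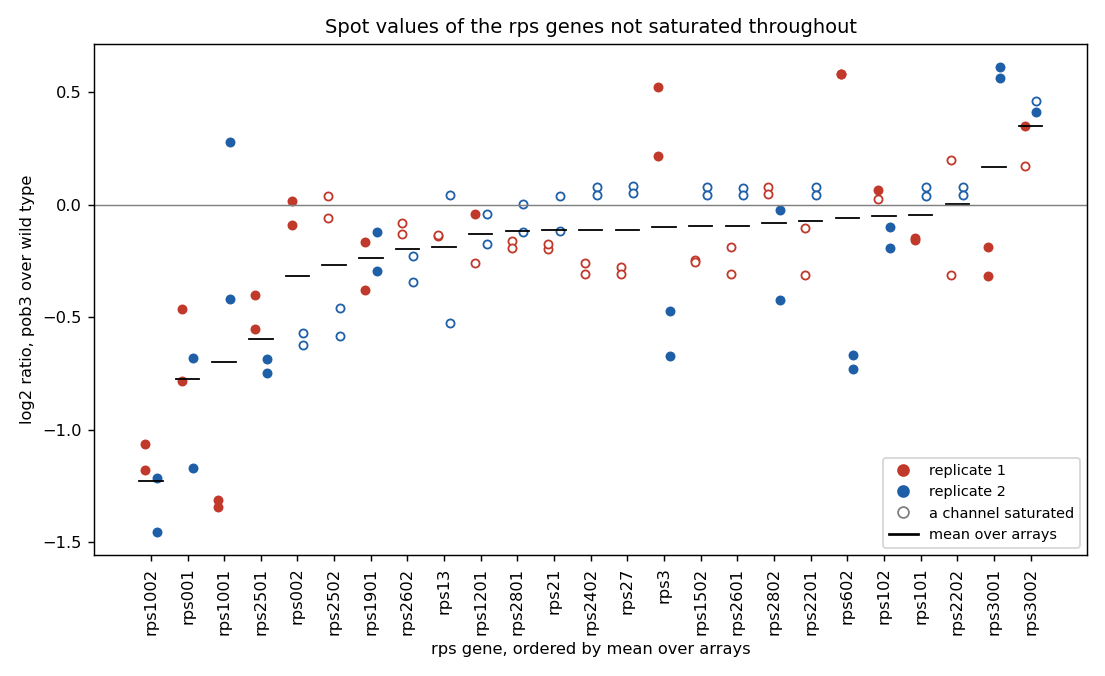
Log2 ratio of pob3 over wild type in each duplicate spot of each array for 25 of the rps genes that were not saturated in all readings, ordered by mean (black bars), with open circles where a channel was saturated. All 4 spots of rps1002, rps001 and rps2501 lie below 0, and spots of rps602 and rps3 lie above 0 on replicate 1 and below 0 on replicate 2.

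Paralogs could be compared freely in only 1 of the 22 measured pairs, that of rps1001 and rps1002, where neither gene had a saturated reading. In 8 pairs both genes, and in 5 pairs 1 gene, were saturated in all readings. Pairs of genes both at the ceiling differed in the mean by at most 0.0020, which again describes the correction. The remaining pairs had some saturated readings. No difference was tested.

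The difference of rps1001 minus rps1002 was -0.20 on replicate 1 and 1.26 on replicate 2 (0.53 ± 1.04), so that the spread between arrays was larger than the mean. With median centring rps1001 had -1.45 and rps1002 -1.46 on replicate 1. The gene rps001 was lower than rps002 by 0.59 on replicate 1, where neither was saturated. With median centring rps001 had -1.19 and rps002 -0.88 there, a smaller difference in the same direction. On replicate 2 the difference after the curve was -0.33, but wild type was at the ceiling for rps002, so the true difference may be smaller or of the other sign. The difference of rps2501 minus rps2502 was -0.47 on replicate 1, where pob3 was at the ceiling for rps2502. With median centring rps2501 had -0.76 and rps2502 -1.15 there, the opposite order, so that this sign rests on the curve. On replicate 2 the difference was -0.19, with wild type at the ceiling for rps2502, so that its sign is not settled. For the Rps30 genes, rps3001 minus rps3002 was -0.51 on replicate 1 and 0.15 on replicate 2, with pob3 at the ceiling in 1 spot of rps3002 each time. The sign on replicate 2 is therefore not settled either. With median centring rps3001 had -0.36 and rps3002 -0.77 on replicate 1, so that the sign there rests on the curve. In the pairs of Rps1, Rps22, Rps26 and Rps28, mean differences lay between -0.07 and 0.10, with up to 7 of 8 readings of a gene saturated, so that these values partly describe the curve. The arrays had opposite signs in each of these pairs. Differences lay between -0.24 and -0.14 on replicate 1 and between 0.0011 and 0.35 on replicate 2, so that they partly cancel in the mean.

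**Figure D5:**
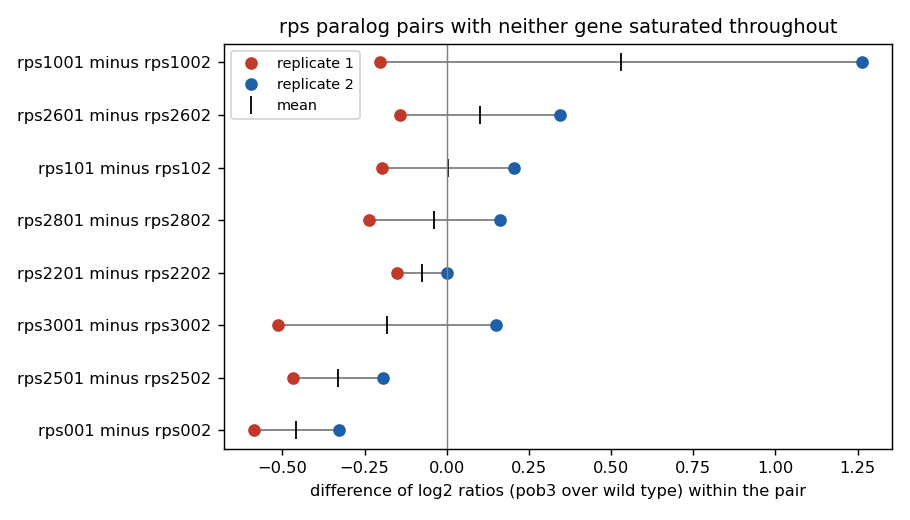
Difference of the log2 ratio (pob3 over wild type) between the first and the second named gene of each pair, on each array and as the mean, for 8 of the pairs in which neither gene was saturated in all readings. The pair of Rps10 genes (rps1001 minus rps1002) is the 1 pair with no saturated reading, and its arrays lie at -0.20 and 1.26, while points of the other pairs can be bounds or parts of the curve.

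Large-subunit genes gave a similar picture, as their median of -0.12 over 74 measured genes was again that of the ceiling. The 18 measured genes with no saturated reading had a median of -0.12, with -0.10 on replicate 1 and -0.06 on replicate 2. Of the 74, 0 passed the test and 1 was lower at an unadjusted p of 0.05, rpl1603 (-0.65 ± 0.22, limma adjusted p = 0.594), where 2.94% of all genes were. Large-subunit genes at the ceiling in all readings could not be called, so that these shares cannot be compared. The difference between the subunits was not tested.

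Genes that act on the small subunit were read from lists chosen by name. Of 64 measured small-subunit assembly factors 0 passed limma's test in either direction, and their median was -0.03. An unadjusted p below 0.05 was found for 5, a share near the 7.41% of all genes. Of the 64, 4 were lower at that threshold, against 2.94% of all genes, and 1 was higher, a split that was not tested. Those with the smallest p were utp10, of the processome that assembles the subunit (1.02 ± 0.89, with 0.39 and 1.66 on the arrays), the RNA helicase gene rok1 (-0.75 ± 0.51) and rrp12 (-0.69 ± 0.25), whose budding yeast counterpart acts in export of preribosomes. Of 18 initiation factor genes whose products bind the small subunit 0 passed, with a median of 0.05, and int6, of factor eIF3, had -0.67 ± 0.56. The genes tif301, also of eIF3, and tif5, of eIF5, had -0.44 ± 0.20 and 0.44 ± 0.09.

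Of 10 measured genes for transcription of ribosomal protein genes or modification of small-subunit proteins 0 passed, with a median of 0.11. The kinase gene sck2 had 0.79 ± 0.07 (limma adjusted p = 0.431), and rrn7, whose product also binds a promoter element of fission yeast ribosomal protein genes, had -0.66 ± 0.36 (0.606). The TATA-binding protein gene tbp1 had 0.74 ± 0.94 (0.659), with 0.08 on replicate 1 and 1.41 on replicate 2, so that its value rested on 1 array. In each of these 3 lists at most 5 genes had any saturated reading.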

How the data were processed

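Gene expression was measured on 2 dye-swapped arrays. The deposited scanner values are intensities, per the file headers the median brightness of a spot and of its background, in 4 files of 5760 spots, 1 for each duplicate spot of an array. The deposited log2 values of the submitters, which per the series' design text were normalised by Lowess in GeneSpring, had column medians of -0.12 and -0.04. On replicate 2 these correlated with the ratios computed here (r = 0.977, as pob3 over wild type), and for replicate 1 they held 768 values with 0 on gene spots, so that its scale, centring and direction stay unknown. Neither column was used further. Per the same text the authors listed genes past a ratio of 2.

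In limma 3.58.1 (R 4.3.3), background was corrected by normexp (offset 50), and a loess curve was fitted to each file, in which control spots had weight 0. Spots with a quality flag other than 0 were left out, as were those not above background in either dye, the limit being 2 background SDs for Cy3 and 1.5 times the background for Cy5. The headers do not name the dye of the background SD, which was taken to be Cy3. Duplicate spots were averaged per array. The mean was tested against 0 by limma (lmFit, then eBayes), p-values were adjusted over 4766 genes by Benjamini-Hochberg, and the procedure was tested on simulated data. There the share of false calls exceeded the nominal level in most runs, so that adjusted p-values may be too small. With 1 residual degree of freedom it rests on the pooled spread (prior degrees of freedom 9.71). Saturated spots were kept.

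Current symbols come from a RefSeq table (ASM294v3), where 4647 of 4868 array names and all 55 members matched 1 nuclear locus. Array names of genes given here differ mostly in the paralog suffix, as rps10-2 for rps1002, and rps001 was listed as SPBC685.06. Members and lists were chosen with earlier results of these data known. Described singly are genes with an unadjusted p under 0.05, the 8 lowest and 8 highest with the same sign on both arrays, the 4 with the largest difference between arrays, the 5 paralog pairs with the largest and the 5 with the smallest mean difference, genes saturated in 1 channel on both arrays and up to 3 genes of each list. The split by saturation, and with it the 9 unsaturated genes, was chosen after the data were seen. Some genes that this rule covers are not reported here singly, though the counts and medians include them. Probe and promoter sequences were not used here.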

Additional observations from a re-analysis of the deposited data

How the results depend on the processing

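With 0 of 52 genes past the threshold, the count was 1 (rps1002) without background subtraction, with the second spots alone, with duplicateCorrelation and at an adjusted p of 0.10. The count of 1 gene over 2-fold on both arrays was 0 with print-tip loess and 2 at 1.5-fold. The median of -0.12 was -0.65 with median centring and -0.45 with a loess curve fitted without saturated spots, the latter chosen after seeing the data. The 13 genes below 0 on both arrays were 21 with print-tip loess and 6 of 12 with saturated spots left out. The median absolute difference within paralog pairs of 0.021 was 0.047 under median centring, 0.070 under print-tip loess, 0.53 without saturated spots and 0.18 over pairs with neither gene saturated throughout, a choice also made after seeing the data. With a single array there were 1 to 2 genes over 2-fold, 18 to 46 below 0, medians of -0.31 to 0.06 (-0.57 to -0.27 for the unsaturated genes) and pair differences of 0.078 to 0.099. Those single-array values have no test. Of 185 values of 16 named genes under 12 alternatives, 4 changed sign: rps2801 to 0.0029 with print-tip loess, rps3 to 0.14 with print-tip loess and 0.025 with the second spots, and rps3002 to -0.071 with median centring. Means stayed the same with a spread that depends on intensity, with duplicateCorrelation, without the spot filter and with both channels above background. The unsaturated genes also kept theirs with saturated spots left out, so that the count of 4 overstates how stable the signs are. On replicate 1 alone, outside that count, rps3 (0.37), rps602 (0.58) and rps3001 (-0.25) also had the other sign. The cause of these shifts was not tested. Adjusted p-values of rps1002 ranged from 0.0182 to 0.458. The test was paired by array, because each array holds both strains and its ratio is the pair. Signals at the scanner ceiling limit these genes more than background does.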
